A study of Mus musculus with 9 samples.

Results

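The genes described here encode the metzincin metalloproteinases of the Adam, Adamts and Mmp families, the protease-lacking Adamts-like proteins, and the Timp inhibitors. They were chosen by name, as the gene rows whose symbols start with Adam, Adamts, Adamtsl, Mmp or Timp followed by a number, which gave 84 of 32531 rows. There were 33 Adam, 19 Adamts, 5 Adamtsl, 23 Mmp and 4 Timp genes. Of these, 10 had no count in any library and 12 had from 1 to 9 counts over all 9 libraries.

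RNA was sequenced from the cerebral cortex of adult control mice of the Abcb1a-EGFP/Rpl10a line ES3026, which received no treatment. In this TRAP line (translating ribosome affinity purification) the transgene carries a fluorescent tag on the ribosomal protein Rpl10a under the control of Abcb1a, which encodes an efflux transporter of brain endothelial cells, so that ribosomes of Abcb1a-expressing cells can be pulled down with their mRNA. There were 3 groups of 3 libraries: ribosome-bound RNA from immunoprecipitates prepared by an investigator with the initials ES (ES IP), the same fraction prepared by an investigator with the initials JL (JL IP), and total RNA of the homogenate prepared by JL (JL input). All 9 libraries came from this 1 transgenic line, inputs included. The labels name the investigator as the only difference between the IP sets, and do not say from how many animals each group was made, so p-values measure the spread between libraries, which may be technical. Libraries held from 31987470 to 46598478 gene counts, of which the ribosomal precursor Rn45s took 15.7 to 17.9% in JL IP, 6.04 to 12.03% in ES IP and 4.83 to 5.29% in input, and the part of this difference in the results was not tested. The ES IPs carried lane number 6 and the JL libraries lane numbers 2, 3 and 4 in their file names, each JL IP sharing its lane with the input of the same number, and the effects of lane and of investigator cannot be told apart.

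Adam proteins sit in the plasma membrane and cut the outer parts of other membrane proteins, a step called shedding, which releases growth factors and starts Notch signalling. Adamts proteins are secreted and cut matrix proteins such as the proteoglycans versican and aggrecan or the propeptides of collagens, and Mmp proteins are secreted or membrane-held enzymes that degrade matrix and cut other proteases. Timp proteins block these enzymes, and in brain vessels the balance is known for its part in turnover of the basement membrane and in barrier leakage after injury. A separate branch, Adam11, Adam22 and Adam23, has lost protease activity and serves in neurons as receptors of the Lgi proteins at synapses.

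Levels are given as CPM (a gene's counts scaled to a common library size), scaled with TMM factors over the 9 libraries, and levels of different genes are compared only per kilobase (kb) of merged exon. Abcb1a, the driver gene of the transgene, was at 46.5 ± 8.49 CPM in ES IP, 458 ± 20.8 in JL IP and 2.11 ± 0.478 in input (mean ± SD, n = 3 each, as throughout). The summed level of 10 endothelial markers was 5006 to 5619.96 CPM in JL IP, 598 to 1020.2 in ES IP and 19.2 to 25.1 in input. Neuron markers (9 genes) summed to 1783 to 2310.2 CPM in JL IP, 14879.5 to 15801 in ES IP and 14428 to 15149.6 in input. Oligodendrocyte markers (7 genes) summed to 310.5 to 457 CPM in JL IP, 1055 to 1281 in ES IP and 2256 to 2629 in input, and astrocyte markers (8 genes) to 326 to 498, 1319 to 1906 and 2125 to 2287. Single genes weigh heavily in these sums: Snap25 was at 1349, 11881 and 10289 CPM in the same order of groups, and Slc1a2 at 202, 1005 and 1535. The astrocyte markers Gja1 and Gjb6 went against their sum, at 34.2 and 58.8 CPM in JL IP against 18.7 and 26.2 in input. No marker of any list was at 0 in a whole group, though Cnn1 of the smooth muscle list had 1 count in the JL IPs. The ES IPs stood apart from the JL IPs, with lower sums of endothelial and higher sums of neuron, oligodendrocyte and astrocyte markers, and results from the 2 IP sets are given separately.

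The first comparison set JL IP against JL input and asks which of these genes are carried on the tagged ribosomes beyond their level in whole cortex. The protease Mmp28 and the inhibitors Timp1 and Timp3 were higher in the JL IPs, as were the sheddases Adam15 and Adam17, while the neuronal receptors Adam22 and Adam23 and the membrane proteases Mmp17 and Mmp24 were lower. Mmp25, near 0 in the inputs, was also higher. By edgeR's quasi-likelihood test with Benjamini-Hochberg adjustment over all genes (threshold 0.05), 54 of the 84 genes had enough counts to be tested. Of these, 18 were higher and 21 lower in the JL IPs, and 15 did not pass. Among all 17357 genes tested, 36.7% were higher and 37.4% lower, so the families as a whole changed about as often as other genes. The median log2 fold change was -0.44 over the tested members and -0.09 over all genes. Changes of at least 2-fold were called for 16 of the members that rose and 18 of those that fell, against 24.1% of all genes tested in the higher and 28.9% in the lower direction, so these shares of the 54 members were near those of all genes. The values set ribosome-bound RNA against total RNA of the homogenate, so a lower value does not by itself mean lower expression within a cell type. How far RNA of untagged cells was carried into the IPs was not tested. Cell number and RNA per cell cannot be told apart in these fractions either.

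**Figure D1:**
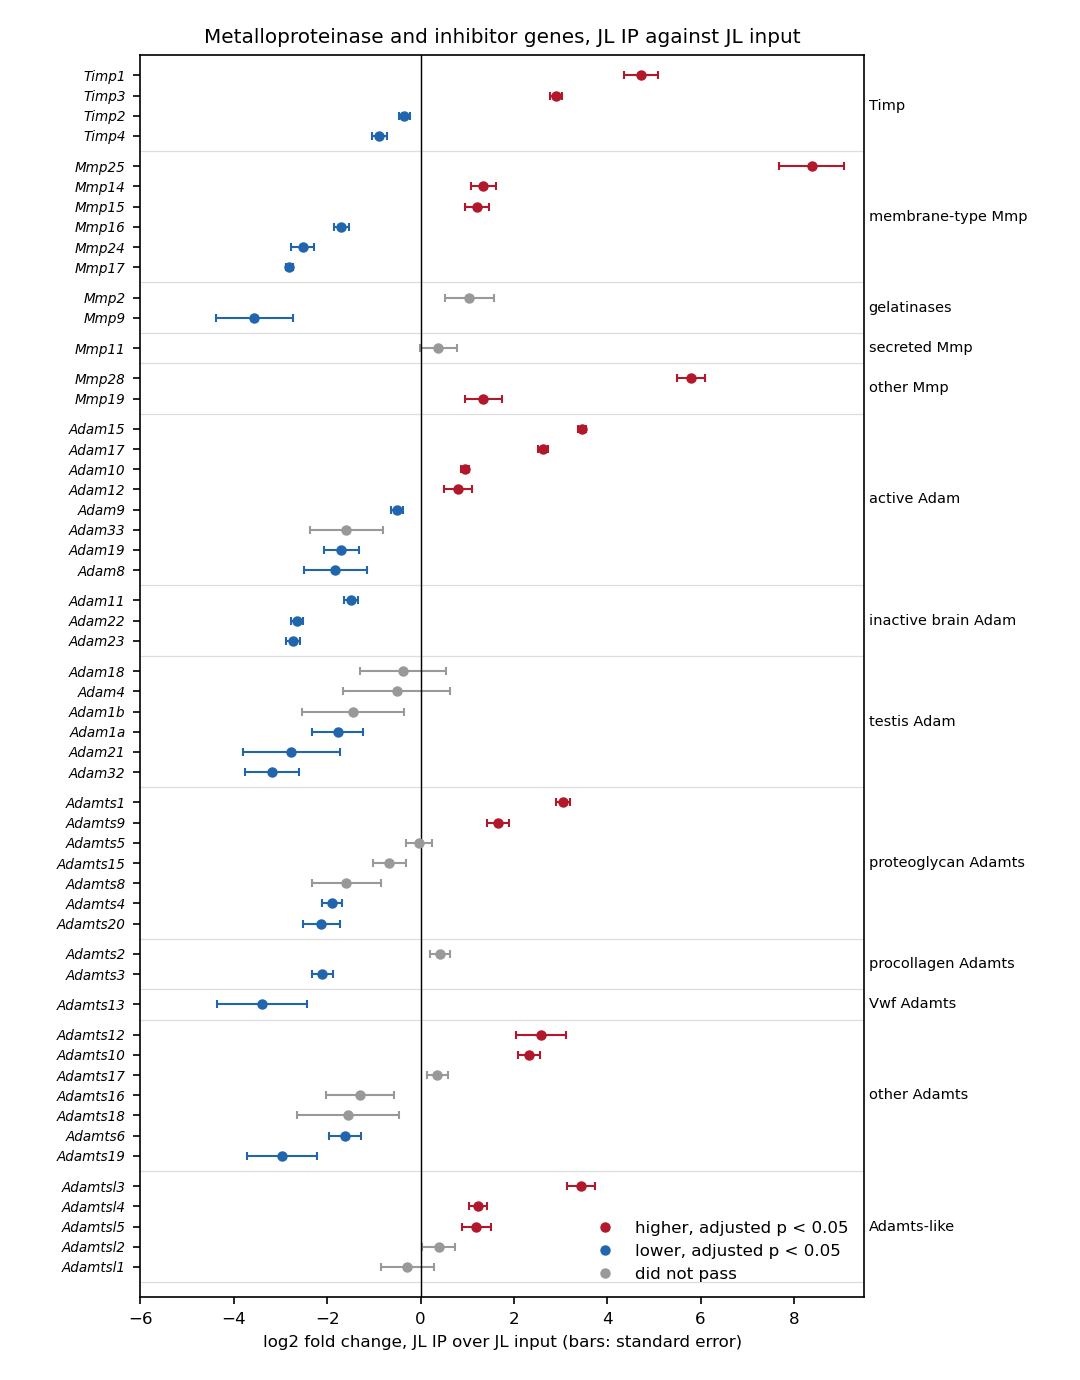
Log2 fold change of JL IP over JL input for each of the 54 tested genes, grouped by role, with standard errors as bars. Points coloured red (18) were higher and blue (21) lower at an adjusted p under 0.05, grey points (15) did not pass, and most roles hold genes on both sides of 0. The value of Mmp25 rests on 2 counts in the inputs.

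Promoter sequences are shown for the 3 genes with the highest and the 3 with the lowest log2 fold change among those called with at least 5 CPM in the higher group that had an entry in the RefSeq promoter table (build GRCm38.p6), since they mark both ends of the range. Each is the stretch of up to 250 bases before the start site, 5′ to 3′ on the gene's strand, without bases that lie in an annotated exon. Capitals mark the letters of an AP-1 site (TGANTCA), a PEA3 site (AGGAAG, the core of ETS factor sites), a GC box (GGGCGG) or a TATA box (TATAAA), searched on both strands, and matches of different motifs may overlap. Mmp25 (chr17:23645278-23645519, minus strand), Mmp28 (chr11:83463072-83463290, minus strand) and Timp1 (chrX:20869916-20870165, plus strand, inside Syn1 on the other strand) were higher in the JL IPs.
Mmp25: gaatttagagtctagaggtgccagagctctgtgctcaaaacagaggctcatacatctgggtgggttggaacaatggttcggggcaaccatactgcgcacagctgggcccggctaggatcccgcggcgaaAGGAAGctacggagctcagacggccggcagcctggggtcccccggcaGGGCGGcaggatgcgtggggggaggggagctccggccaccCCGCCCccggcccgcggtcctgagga
Mmp28: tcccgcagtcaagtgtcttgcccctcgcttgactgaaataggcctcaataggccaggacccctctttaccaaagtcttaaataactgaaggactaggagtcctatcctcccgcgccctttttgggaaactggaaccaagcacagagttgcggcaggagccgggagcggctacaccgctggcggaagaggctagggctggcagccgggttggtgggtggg
Timp1: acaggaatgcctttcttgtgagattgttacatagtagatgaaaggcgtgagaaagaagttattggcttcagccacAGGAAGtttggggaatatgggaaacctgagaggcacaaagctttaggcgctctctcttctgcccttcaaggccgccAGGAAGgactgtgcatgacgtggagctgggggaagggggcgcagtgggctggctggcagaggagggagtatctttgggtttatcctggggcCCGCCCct
Adam23 (chr1:63445641-63445890, plus strand), Adam22 (chr5:8368161-8368410, minus strand) and Mmp24 (chr2:155775092-155775341, plus strand) were lower.
Adam23: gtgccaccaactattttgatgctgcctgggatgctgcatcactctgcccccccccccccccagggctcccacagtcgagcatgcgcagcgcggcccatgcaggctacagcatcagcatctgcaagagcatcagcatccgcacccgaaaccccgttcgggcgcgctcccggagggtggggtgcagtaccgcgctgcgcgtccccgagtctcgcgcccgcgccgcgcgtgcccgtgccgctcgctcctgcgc
Adam22: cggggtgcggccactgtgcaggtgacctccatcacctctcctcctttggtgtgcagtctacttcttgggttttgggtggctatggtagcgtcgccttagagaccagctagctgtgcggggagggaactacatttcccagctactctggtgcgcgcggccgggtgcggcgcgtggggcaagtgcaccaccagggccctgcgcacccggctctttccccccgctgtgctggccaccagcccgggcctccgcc
Mmp24: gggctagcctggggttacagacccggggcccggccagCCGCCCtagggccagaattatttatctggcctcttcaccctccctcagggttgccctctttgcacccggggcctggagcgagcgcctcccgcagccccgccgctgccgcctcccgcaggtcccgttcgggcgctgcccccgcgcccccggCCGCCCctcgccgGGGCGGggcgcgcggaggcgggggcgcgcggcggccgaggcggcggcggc
The printed stretches of Mmp25 and Timp1 hold PEA3 and GC box letters, that of Mmp24 holds GC boxes, and those of Mmp28, Adam22 and Adam23 hold none of the 4 motifs. The full 250 bases of Mmp28, including 31 bases left out of the printed stretch, hold 2 GC boxes.

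Of the 84 genes, 53 had a promoter entry, and the share with each motif in the full 250 bases was set beside the share in all 32851 windows of the table. GC boxes stood in 14 of the 15 windows of genes called higher in the JL IPs and in 5 of the 12 of genes called lower, against 32.7% of all windows. Among the 12, the windows of Adamts20 and Adam1a lie 61068 and 23787 bases from the annotated start of the gene, and so belong to other start sites. PEA3 letters stood in 7 of 15 and 1 of 12, against 29.5% of all. AP-1 letters, known from promoters of inducible collagenases and stromelysins, stood in 0 of 15 and 1 of 12, but in 11 of the 53 windows in all, against 6.75% of all windows. TATA boxes stood in 1 of 15, 0 of 12 and 13 of 53, against 12.4% of all. GC content had a median of 65.6% in the windows of the higher genes, 63.4% in those of the lower genes and 52.4% over all windows, so the sets differ from the table in base composition. They differ in make-up too. Called genes had passed the count filter and enter with 1 window each, while the table also holds genes that were not tested and further start sites. The shares of all windows are therefore no like background for the called genes. These are descriptions of letters, not of bound sites.

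Among the 9 Adam genes with a working or shedding role, 8 were tested, of which 4 rose in the JL IPs (Adam10, Adam12, Adam15, Adam17), 3 fell (Adam8, Adam9, Adam19) and Adam33 did not pass. Adam15 carries an integrin-binding motif and is known from endothelial junctions. Its level was 240.0, 229 and 216 CPM in the JL IPs, against 20.1, 20.9 and 21.1 in the inputs and 56.04, 48.4 and 46.2 in the ES IPs. All JL IPs lay above all other libraries, with a log2 fold change over input of 3.46 ± 0.08, adjusted p = 3.3e-09 (± SE by edgeR, here and below). Exons of an antisense gene cover 20.6% of its exon bases. Adam17, the main sheddase of tumour necrosis factor and its receptors, was at 61.6, 72.2 and 60.5 CPM in the JL IPs, against 9.96, 10.9 and 10.7 in the inputs and 12.96, 12.95 and 13.6 in the ES IPs. The JL IPs again did not overlap the inputs (2.62 ± 0.11, adjusted p = 9.83e-08).

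Adam10, the sheddase that acts on Notch and on N- and VE-cadherin, was at 93.4, 112 and 95.7 CPM in the JL IPs, against 54.1, 51.7 and 49.6 in the inputs and 29.8, 33.9 and 31.8 in the ES IPs. Here the JL IPs were highest and the ES IPs lowest, with no overlap between the 3 groups, and JL IP exceeded input by 0.95 ± 0.09, adjusted p = 1.66e-05. Adam12, a sheddase of heparin-binding growth factor, stood at 7.28 ± 2.9 CPM in JL IP, 4.13 ± 0.320 in input and 3.76 ± 1.59 in ES IP. Its rise (0.81 ± 0.30, adjusted p = 0.036) was lost without JL IP replicate 3 (0.47, adjusted p = 0.105) and without any 1 of the 3 inputs (adjusted p from 0.0763 to 0.110), and with the replicate number, which marks a shared lane, as a block (0.74, adjusted p = 0.0519).

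Adam19, known from neuregulin processing and heart development, was at 5.07, 10.8 and 18.8 CPM in the JL IPs, against 38.8, 35.7 and 37.5 in the inputs and 40.5, 64.96 and 108 in the ES IPs. Its spread within each IP set was wide, yet every JL IP lay below every input (-1.69 ± 0.37, adjusted p = 0.00314). Adam9, a widely expressed sheddase, was at 17.7 ± 2.4 CPM in JL IP, 25.1 ± 1.04 in input and 16.95 ± 1.84 in ES IP and fell slightly (-0.51 ± 0.13, adjusted p = 0.00711). Adam8, known from leukocytes, was under 1 CPM in every group and fell by 1.82 on the log2 scale (adjusted p = 0.0349; 0.0630 with the replicate block). Adam28, a lymphocyte gene, had 2 counts in JL IP, 11 in input and 3 in ES IP and was not tested.

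All 3 neuronal receptors without protease activity fell in the JL IPs. Adam22, the synaptic receptor of Lgi1, was at 39.96, 36.03 and 50.8 CPM in the JL IPs, against 259, 263 and 268 in the inputs and 169, 238 and 266 in the ES IPs. The JL IPs lay far below both other groups (-2.64 ± 0.12, adjusted p = 1.97e-07). Adam23, a presynaptic Lgi1 receptor, was at 27.8, 20.5 and 31.03 CPM in the JL IPs, against 179, 169 and 176 in the inputs and 72.5, 104 and 102 in the ES IPs, with no overlap between the JL IPs and the inputs (-2.73 ± 0.14, adjusted p = 3.57e-07). Adam11, its close relative, was at 16.4, 13.03 and 19.9 CPM in the JL IPs, against 46.8, 45.6 and 46.4 in the inputs and 41.1, 52.97 and 52.1 in the ES IPs, also without overlap (-1.50 ± 0.15, adjusted p = 2.57e-05). The 9 neuron markers were all lower too, by log2 values from -3.79 to -2.10, a range that holds Adam22 and Adam23 but not Adam11. The 7 oligodendrocyte markers were also all lower, from -3.50 to -1.42, a range that holds all 3 receptors. How far neuronal or oligodendrocyte RNA sets these values was not tested.

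Of the 21 Adam genes known mainly from testis and sperm, 6 were tested, 3 fell and none rose in the JL IPs. Adam32 was at 0.214 ± 0.121 CPM in JL IP, 1.99 ± 0.671 in input and 0.265 ± 0.168 in ES IP, and fell (-3.18 ± 0.59, adjusted p = 0.00113). Adam21 was at 0.163 ± 0.254 CPM in JL IP, 1.17 ± 0.259 in input and 0.877 ± 0.148 in ES IP, and its fall (-2.77 ± 1.04, adjusted p = 0.0381) was lost without JL IP replicate 1 (-2.29, adjusted p = 0.0684) and without any 1 input (adjusted p from 0.0804 to 0.110). Adam1a also fell (adjusted p = 0.0170; 0.0826 with the replicate block), but 63.7% of its exon bases are shared with genes on the same strand. The other 18 stayed under 1 CPM in every group. Adam3 had 40 counts in the JL IPs, 30 of them in replicate 2, against 11 in the inputs, 9 of them in replicate 1, and 4 in the ES IPs. Adam5 had none in the JL IPs against 13 in the inputs and 22 in the ES IPs, and neither gene was tested.

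The 7 Adamts genes that cut proteoglycans went both ways, with 2 higher, 2 lower and 3 that did not pass. Adamts1, a versican and aggrecan protease of vessels, was at 62.99, 54.1 and 44.7 CPM in the JL IPs, against 6.15, 7.07 and 6.23 in the inputs and 28.2, 20.2 and 18.5 in the ES IPs. The 3 groups did not overlap, the JL IPs being highest and the inputs lowest (3.05 ± 0.15, adjusted p = 2.76e-07). Adamts9, a secreted versican protease, was at 8.93, 9.35 and 7.46 CPM in the JL IPs, against 2.25, 3.27 and 2.62 in the inputs and 0.632, 2.81 and 2.24 in the ES IPs, and every JL IP exceeded every other library (1.66 ± 0.23, adjusted p = 0.000202). Adamts4, an aggrecanase known from oligodendrocytes, was at 2.7, 2.48 and 2.48 CPM in the JL IPs, against 11.1, 8.38 and 8.97 in the inputs and 4.64, 4.93 and 5.85 in the ES IPs. It was lowest in the JL IPs, without overlap (-1.90 ± 0.21, adjusted p = 4.31e-05). The 7 oligodendrocyte markers fell as well, from sums of 2256 to 2629 CPM in the inputs to 310.5 to 457 in the JL IPs, and their part in the fall of Adamts4 was not tested. Adamts20, a versican protease known from pigment cell development, was at 0.710, 2.0 and 2.31 CPM in the JL IPs, against 7.27, 7.46 and 7.17 in the inputs and 2.36, 2.7 and 3.63 in the ES IPs, with all inputs above both IP sets (-2.12 ± 0.39, adjusted p = 0.00113).

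The other 3 proteoglycan proteases did not pass. Adamts5, an aggrecanase, was at 4.36 ± 1.36 CPM in JL IP, 4.45 ± 0.383 in input and 3.05 ± 0.990 in ES IP (-0.03 ± 0.29, adjusted p = 0.926). Adamts15 was at 1.95 ± 0.722 CPM in JL IP, 3.09 ± 0.332 in input and 2.73 ± 1.06 in ES IP (-0.67 ± 0.35, adjusted p = 0.114), and Adamts8 at 0.343 ± 0.293 CPM in JL IP, 1.02 ± 0.102 in input and 1.82 ± 0.899 in ES IP (-1.59 ± 0.74, adjusted p = 0.0815). The last 2 passed without JL IP replicate 1, at log2 values of -0.98 (adjusted p = 0.0170) and -2.41 (adjusted p = 0.0169). Adamts8 also passed by limma-voom (-2.09, adjusted p = 0.0209), and both passed by edgeR with library size alone as the scaling (-0.93, adjusted p = 0.0345, for Adamts15 and -1.85, adjusted p = 0.0483, for Adamts8).

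Among the procollagen propeptidases, Adamts3, which also cuts Reelin and activates the lymphatic growth factor Vegfc, was at 3.48, 6.36 and 6.07 CPM in the JL IPs, against 21.6, 22.4 and 24.5 in the inputs and 13.2, 15.2 and 15.6 in the ES IPs. The JL IPs were lowest and the inputs highest, without overlap (-2.11 ± 0.22, adjusted p = 3.6e-05). Adamts2, which trims fibrillar procollagens, was at 9.28 ± 1.81 CPM in JL IP, 6.93 ± 0.930 in input and 5.14 ± 0.567 in ES IP and did not pass (0.42 ± 0.21, adjusted p = 0.0951), though it did without JL IP replicate 1 (0.57, adjusted p = 0.0213). Adamts14 had 1 count in the JL IPs, 21 in the inputs and 2 in the ES IPs. Adamts13, the plasma protease of von Willebrand factor, had 8 counts in the JL IPs against 140 in the inputs and 117 in the ES IPs, and was lower (-3.40 ± 0.96, adjusted p = 0.011), while its substrate Vwf rose by 8.12 on the log2 scale.

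Of the 8 remaining Adamts genes, 7 were tested, with 2 higher, 2 lower and 3 that did not pass. Adamts10, known from fibrillin microfibrils, was at 9.91, 11.8 and 14.4 CPM in the JL IPs, against 2.0, 2.27 and 2.91 in the inputs and 4.76, 3.13 and 3.63 in the ES IPs, with all JL IPs above all other libraries (2.32 ± 0.24, adjusted p = 2.62e-05). Adamts12, known from cartilage, was low at 2.78 ± 1.22 CPM in JL IP, 0.461 ± 0.189 in input and 0.223 ± 0.117 in ES IP, and rose (2.58 ± 0.54, adjusted p = 0.00222). Adamts6, another microfibril-related protease, was at 1.62, 1.97 and 3.99 CPM in the JL IPs, against 8.79, 6.74 and 7.66 in the inputs and 0.535, 1.23 and 1.24 in the ES IPs. The inputs were highest and the ES IPs lowest (-1.62 ± 0.35, adjusted p = 0.00276). Adamts19 was at 0.262 ± 0.231 CPM in JL IP, 2.06 ± 0.693 in input and 0.00761 ± 0.0132 in ES IP, and fell (-2.96 ± 0.75, adjusted p = 0.00641). Adamts17 was at 7.16 ± 1.38 CPM in JL IP, 5.56 ± 0.710 in input and 7.9 ± 2.63 in ES IP and did not pass (0.36 ± 0.22, adjusted p = 0.164). Adamts16 (1.37 ± 1.35 CPM in JL IP, 3.35 ± 0.320 in input and 0.685 ± 0.0498 in ES IP) and Adamts18 (0.474 ± 0.678 CPM in JL IP, 1.38 ± 0.342 in input and 0.634 ± 0.251 in ES IP) did not pass either (-1.29 ± 0.72, adjusted p = 0.137, and -1.55 ± 1.09, adjusted p = 0.222), but each passed without 1 JL IP library: Adamts16 without replicate 3 (-2.35, adjusted p = 0.00997) and Adamts18 without replicate 1 (-3.90, adjusted p = 0.00545). By limma-voom with all libraries both passed (-1.97, adjusted p = 0.0192, and -3.12, adjusted p = 0.0207).

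Of the 5 Adamts-like genes, which resemble the Adamts proteins outside the protease domain and bind microfibrils, 3 rose in the JL IPs and 2 did not pass. Adamtsl3 was at 8.15, 10.2 and 15.2 CPM in the JL IPs, against 1.06, 1.16 and 0.872 in the inputs and 2.53, 1.8 and 1.67 in the ES IPs, and every JL IP exceeded all other libraries (3.43 ± 0.30, adjusted p = 9.37e-06). Adamtsl4, known from the fibres that hold the lens, was at 12.1, 10.9 and 11.1 CPM in the JL IPs, against 5.35, 3.76 and 5.34 in the inputs and 2.09, 4.39 and 4.34 in the ES IPs, again with the JL IPs highest (1.24 ± 0.20, adjusted p = 0.00047). Adamtsl5 was at 7.51, 3.68 and 5.74 CPM in the JL IPs, against 2.42, 2.27 and 2.68 in the inputs and 6.73, 6.44 and 5.42 in the ES IPs, and here both IP sets lay above the inputs (1.19 ± 0.31, adjusted p = 0.00706). Adamtsl1 was at 3.0 ± 2.05 CPM in JL IP, 3.64 ± 0.902 in input and 3.68 ± 0.566 in ES IP (-0.28 ± 0.58, adjusted p = 0.671), with a JL IP replicate 1 far below the other 2 JL IPs. Adamtsl2 was at 4.17 ± 1.9 CPM in JL IP, 3.18 ± 0.519 in input and 4.24 ± 0.883 in ES IP (0.39 ± 0.36, adjusted p = 0.352). Both changed sign without that library, at 0.20 and -0.02.

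All 6 membrane-held Mmp genes were tested, and 3 rose and 3 fell in the JL IPs. Mmp25, leukolysin, is anchored by a lipid tail and known from neutrophils. It was at 4.9, 4.59 and 6.93 CPM in the JL IPs, against 0, 0.0392 and 0 in the inputs and 0.778, 1.14 and 0.215 in the ES IPs, that is 516 counts in the JL IPs against 2 in the inputs. The ratio of levels was 408 (95% exact interval 112 to 3376, counting error only), and the test called it (adjusted p = 7.08e-06). Mmp14, the collagen-degrading protease that activates proMmp2, was at 5.44, 8.66 and 5.88 CPM in the JL IPs, against 2.19, 2.57 and 3.08 in the inputs and 1.99, 2.38 and 3.2 in the ES IPs. All JL IPs lay above all other libraries (1.35 ± 0.27, adjusted p = 0.002). Mmp15, its close relative, was at 16.6, 10.004 and 8.88 CPM in the JL IPs, against 5.35, 4.45 and 5.42 in the inputs and 2.84, 2.56 and 5.01 in the ES IPs, also with every JL IP above the rest (1.22 ± 0.26, adjusted p = 0.00258).

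Mmp17, a lipid-anchored protease, fell by the most of the genes of at least 5 CPM. It was at 15.4, 17.1 and 17.4 CPM in the JL IPs, against 117, 114 and 118 in the inputs and 144, 149 and 168 in the ES IPs. The JL IPs were lowest and the ES IPs highest, with no overlap between groups (-2.81 ± 0.08, adjusted p = 1.32e-08). Mmp24, known from neurons, where it cuts N-cadherin, was at 2.37, 1.88 and 3.66 CPM in the JL IPs, against 15.6, 14.7 and 15.1 in the inputs and 19.4, 21.9 and 23.1 in the ES IPs, in the same order and without overlap (-2.53 ± 0.25, adjusted p = 2.25e-05). Mmp16 was at 13.5, 18.2 and 21.7 CPM in the JL IPs, against 56.9, 60.96 and 55.5 in the inputs and 28.2, 37.8 and 40.6 in the ES IPs, with the inputs highest (-1.70 ± 0.16, adjusted p = 1.69e-05). The log2 values of Mmp17 and Mmp24 lie inside the range of the neuron markers and that of Mmp16 outside it. All 3 lie inside the range of the 7 oligodendrocyte markers (-3.50 to -1.42). They also lie inside that of the 6 astrocyte markers that fell (-2.96 to -1.63), while 2 astrocyte markers rose. The part of RNA of neurons or of these glia was not tested. Exons of an antisense gene cover 13.6% of those of Mmp24.

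Of the secreted Mmp genes, most were near the detection limit in cortex. The gelatinase Mmp9, induced in stroke and inflammation, was at 0.0820 ± 0.0716 CPM in JL IP, 1.01 ± 0.257 in input and 0.986 ± 0.0234 in ES IP, and fell (-3.56 ± 0.82, adjusted p = 0.00403). Its counts were 8 in the JL IPs, 152 in the inputs and 125 in the ES IPs, so the size of the fall is loosely set. Mmp2, the gelatinase of resting tissue, was at 1.92 ± 1.0 CPM in JL IP, 0.929 ± 0.161 in input and 1.39 ± 0.693 in ES IP and did not pass (1.05 ± 0.52, adjusted p = 0.0981), but did without JL IP replicate 1 (1.43, adjusted p = 0.00598). Among 9 collagenases, stromelysins, matrilysin and elastase, Mmp11 alone reached 1 CPM (1.68 ± 0.232 CPM in JL IP, 1.29 ± 0.382 in input and 0.852 ± 0.0537 in ES IP, 0.38 ± 0.40, adjusted p = 0.404), and the other 8 had from 0 to 9 counts over all libraries. A count of 3 in 1 library corresponds to 0.0577 to 0.101 CPM, depending on the library. A level under the value of its library rests on fewer than 3 counts and is loosely set.

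Mmp28, epilysin, known from epithelium and myelin repair, was at 9.2, 12.1 and 11.5 CPM in the JL IPs, against 0.212, 0.137 and 0.234 in the inputs and 1.8, 1.19 and 1.31 in the ES IPs. All JL IPs exceeded the ES IPs, which exceeded all inputs (5.79 ± 0.30, adjusted p = 3.49e-07). An antisense gene covers 12.03% of its exon bases. Mmp19, a basement membrane protease, was at 2.11 ± 0.227 CPM in JL IP, 0.829 ± 0.216 in input and 0.744 ± 0.431 in ES IP, and rose (1.34 ± 0.39, adjusted p = 0.0136), which was lost without input replicate 1 (1.25, adjusted p = 0.0653) and without input replicate 3 (1.22, adjusted p = 0.0660), and with the replicate block (1.36, adjusted p = 0.0516). Exons of genes on the other strand cover 28.3% of the exon bases of Mmp19. Mmp20, Mmp21, Mmp23 and Mmp27 had from 0 to 60 counts over all libraries.

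The 4 inhibitor genes split evenly, with Timp1 and Timp3 higher and Timp2 and Timp4 lower in the JL IPs. Timp3, which stays bound to matrix and blocks Adam17 and aggrecanases as well as Mmps, was at 327, 315 and 409 CPM in the JL IPs, against 42.9, 45.7 and 52.4 in the inputs and 76.6, 93.4 and 62.2 in the ES IPs. The JL IPs lay far above all others (2.89 ± 0.13, adjusted p = 1.23e-07). Timp1, induced in injured tissue, was at 6.12, 5.02 and 6.54 CPM in the JL IPs, against 0.288, 0.215 and 0.149 in the inputs and 1.12, 0.891 and 1.07 in the ES IPs, with the 3 groups apart and the JL IPs highest (4.73 ± 0.37, adjusted p = 4.46e-06). Timp2, needed with Mmp14 to activate proMmp2, was at 194, 230.4 and 273 CPM in the JL IPs, against 293, 288 and 302 in the inputs and 198, 227 and 223 in the ES IPs. Its fall was small (-0.34 ± 0.12, adjusted p = 0.0243) and was lost without JL IP replicate 1 or 2 or input replicate 1 or 3 (adjusted p from 0.0558 to 0.0756). Timp4 was at 7.2, 5.9 and 7.99 CPM in the JL IPs, against 13.6, 11.8 and 13.2 in the inputs and 8.19, 6.44 and 6.16 in the ES IPs, with all inputs above both IP sets (-0.88 ± 0.17, adjusted p = 0.00153).

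Timp1, Timp3 and Timp4 each lie inside a synapsin gene (Syn1, Syn3 and Syn2) on the other strand, and exons of Syn3 cover 21.3% of those of Timp3. Whether counting used strand is not given in the sources used here, and reads of both strands cannot be told apart. Reads assigned to no single gene because features overlap came to 10.3 to 11.3% in the inputs against 2.04 to 2.13% in JL IP and 2.44 to 2.54% in ES IP, and the effect of this on overlapping genes was not tested. Beside the rise of Timp1, Timp3 and 3 Adamts-like genes, 6 fibroblast markers summed to 104 to 171 CPM in the JL IPs against 49.8 to 52.0 in the inputs (4 rose, 2 fell). The 7 pericyte markers summed to 23.4 to 49.7 against 31.7 to 34.8 (1 rose, 5 fell). The 5 smooth muscle markers summed to 15.3 to 30.8 against 11.1 to 12.4 (1 rose, 2 fell). The part of these cells in the levels given here was not tested.

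**Figure D2:**
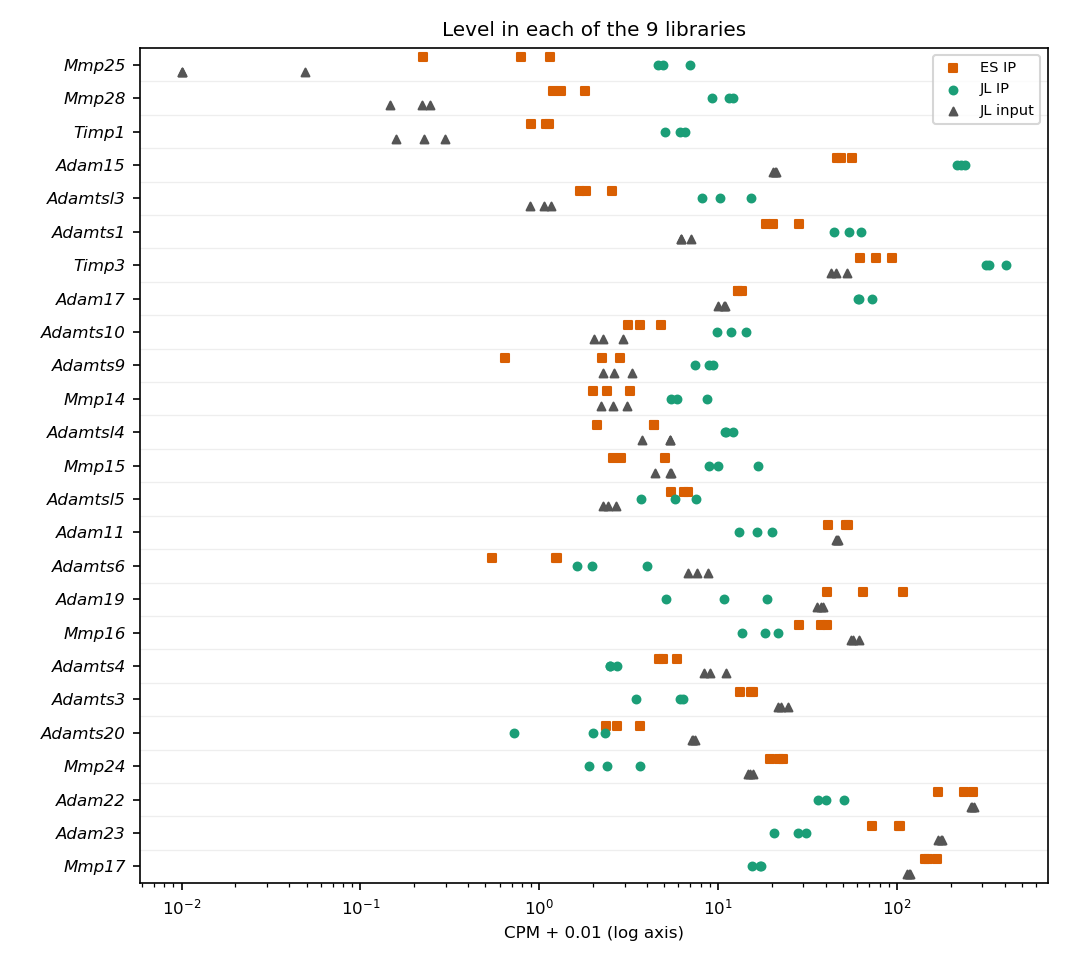
Level of the 25 genes called with a change of at least 2-fold and at least 5 CPM in the higher of JL IP and JL input, as CPM + 0.01 on a log axis, with 1 point per library in the ES IPs (squares), JL IPs (circles) and JL inputs (triangles). Genes are ordered by log2 fold change of JL IP over JL input; in the 14 upper rows the circles lie to the right of the triangles and in the 11 lower rows to the left, while the squares lie near either group depending on the gene.

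The endothelial markers give a scale for these values. All 10 rose in the JL IPs, by log2 values from 6.65 to 9.49. Of the members, Mmp25 alone lay in that range, on 2 input counts, and the next were Mmp28 at 5.79, Timp1 at 4.73, Adam15 at 3.46 and Adamtsl3 at 3.43.

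Levels between genes, per kb of exon, put Timp2 first in every group, at 59.7 ± 10.2 CPM per kb in JL IP and 75.6 ± 1.73 in input. In the JL IPs it was followed by Timp3 (43.02 ± 6.29), Adam15 (37.2 ± 1.92), Adam10 (20.4 ± 2.01) and Adamts1 (10.2 ± 1.73). The ranges of Timp2 and Timp3 over the JL IPs overlapped, and so did those of Timp3 and Adam15. In the inputs the order after Timp2 was Adam22 (18.4 ± 0.311), Mmp17 (17.6 ± 0.378), Adam10 (10.5 ± 0.457) and Adam23 (9.76 ± 0.285). In the ES IPs it was Mmp17 (23.2 ± 1.89), Adam22 (15.6 ± 3.48), Adam19 (9.98 ± 4.78) and Timp3 (9.5 ± 1.92), with Adam19 and Timp3 within the spread of Adam19.

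Summed per kb, the 23 Mmp genes were lower in the JL IPs (14.1 ± 0.857 CPM per kb) than in input (30.3 ± 0.167) or ES IP (34.8 ± 2.92), and Mmp17 made up 57.9% of the sum in the inputs and 66.8% in the ES IPs. The leading Mmp gene of the JL IPs was Mmp28, with 20.0% of the sum. The 4 Timp genes summed to 111 ± 16.4 in the JL IPs, 83.8 ± 2.26 in the inputs and 67.3 ± 4.51 in the ES IPs, of which Timp2 made up 54.0%, 90.2% and 82.4%. The 33 Adam genes summed to 81.3 ± 2.38 in the JL IPs, 65.6 ± 0.479 in the inputs and 61.3 ± 9.90 in the ES IPs, and the leading gene was Adam15 in the JL IPs (45.7%) and Adam22 in the other 2 groups (28.0% of the inputs, 25.5% of the ES IPs). The sums of the 19 Adamts genes were 17.4 ± 0.519, 13.1 ± 0.382 and 11.9 ± 0.339 in the same order of groups, led by Adamts1 in both IP sets and by Adamts3 in the inputs.

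**Figure D3:**
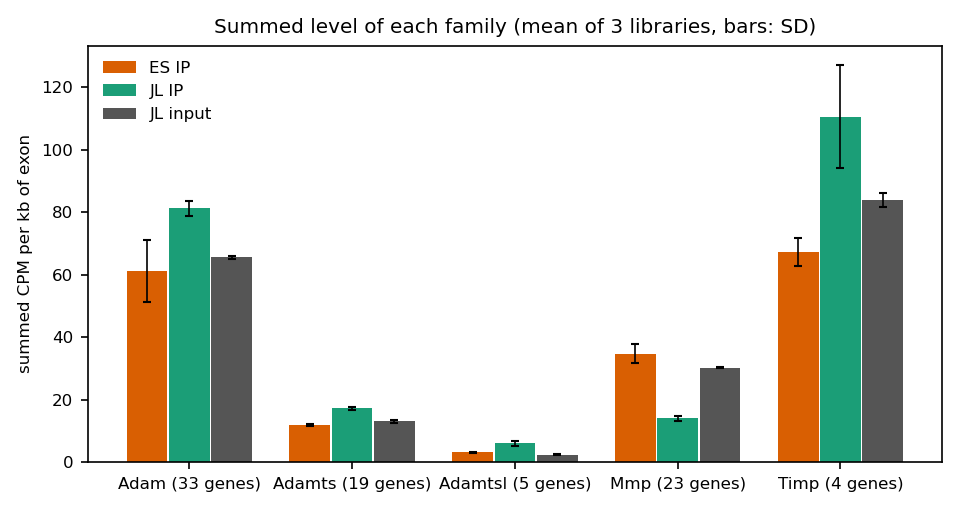
Summed level of each family in CPM per kb of exon, as the mean of the 3 libraries of each group with SD bars. The JL IP bar is the highest for Adam, Adamts, Adamtsl and Timp genes and the lowest for Mmp genes.

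Genes that act on these enzymes were described from a list of 23, of which 21 were tested. Of these, 13 rose in the JL IPs, 3 fell and 5 did not pass (median log2 change 1.41). Among all genes tested, 36.7% were higher and 37.4% lower. The list was chosen with earlier results known, so its counts describe the list alone. The highest of at least 5 CPM was Rhbdf2, the escort that brings Adam17 to the cell surface. Rhbdf2 was at 22.1 ± 2.84 CPM in the JL IPs against 0.155 ± 0.216 in the inputs (7.09 ± 0.60, adjusted p = 7.99e-06). With 24 counts in the inputs, its rise is loosely set in size. Its relative Rhbdf1 and their partner Frmd8 rose too, as did Reck, a membrane-anchored Mmp inhibitor, Bsg, the inducer of Mmp expression called basigin, and Furin and Pcsk7, which remove the propeptides. Among the tetraspanins that escort Adam10, Tspan5, Tspan14 and Tspan17 rose, Tspan15 did not pass and Tspan33 fell from 9.17 to 1.82 CPM (-2.34 ± 0.23, adjusted p = 1.98e-05). Pcsk6 and the clearance receptor Lrp1 were the other 2 that fell. Of the plasmin system genes, Plat and Plaur rose and Plau did not pass.

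Of 17 shed cell-surface proteins, 16 were tested, and 12 rose and 4 fell (median 4.28), against 36.7% higher and 37.4% lower among all genes tested. This list was chosen with earlier results known and holds endothelial receptors, so its median describes the list and not metalloproteinase substrates in general. The largest rise was that of Tie1, an endothelial receptor, at 103.6 CPM in the JL IPs against 0.273 in the inputs (8.55 ± 0.25, adjusted p = 1.32e-08). Tek, Cdh5, Kdr, Dll4, Notch4, Notch1, Icam1, Vcam1, Tnfrsf1a, Tnfrsf1b and Hbegf rose as well, and Tie1, Tek and Cdh5 also stand among the endothelial markers. Nrg1, a neuronal growth factor, fell from 18.9 to 2.88 CPM (-2.72 ± 0.22, adjusted p = 5.66e-06), as did Cdh2, Cx3cl1 and App. Of 15 matrix substrates, 7 rose and 5 fell (median 0.42), to be read beside the same shares of all genes. Vwf, the substrate of Adamts13, was highest, at 173 CPM against 0.618 (8.12 ± 0.40, adjusted p = 2.71e-07), with Col4a1, Col4a2, Col3a1, Col1a1, Col1a2 and Thbs1. The brain proteoglycan Ncan was lowest, at 47.2 against 280.2 CPM (-2.58 ± 0.13, adjusted p = 3.60e-07), with Bcan, Vcan, Reln and Fbn2. All 4 Lgi ligands fell, by log2 values from -2.29 ± 0.42 (Lgi2, adjusted p = 0.00111) to -2.95 ± 0.56 (Lgi4, adjusted p = 0.00138), with Lgi1 at -2.62 ± 0.14 (adjusted p = 4.40e-07), alongside their receptors.

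The second comparison set ES IP against JL IP, the same fraction from the same line in the hands of the other investigator. Of 51 members tested, 12 were higher in the ES IPs, 17 lower and 22 did not pass, against 29.7% higher and 28.2% lower among all 16212 genes tested. The median log2 difference was -0.06 over the tested members and 0.03 over all genes. Of the members higher in the JL IPs than in the inputs, these were lower in the ES IPs: Mmp28 (-2.93 ± 0.30, adjusted p = 1.26e-05), Timp1 (-2.51 ± 0.35, adjusted p = 0.000103), Adam15 (-2.18 ± 0.16, adjusted p = 1.68e-06), Adam17 (-2.30 ± 0.17, adjusted p = 1.74e-06) and Timp3 (-2.18 ± 0.20, adjusted p = 5.78e-06). Adamts1 (-1.27 ± 0.22, adjusted p = 0.000462), Adamts10 (-1.64 ± 0.28, adjusted p = 0.000422) and Mmp25 (-2.93 ± 0.55, adjusted p = 0.000813) were lower as well. The 2 comparisons share the JL IPs, so their opposite signs are not independent.

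Further members lower in the ES IPs were Adamts9 (-2.18), Adamts12 (-3.62), Adamtsl3 (-2.48), Adamtsl4 (-1.66), Mmp14 (-1.40), Mmp15 (-1.76), Adam10 (-1.65), Adamts2 (-0.85) and Mmp19 (-1.50), with adjusted p from 9e-06 to 0.0467. The call of Adamts2 was lost without replicate 3 of either IP set (adjusted p = 0.0593 and 0.0532), and that of Mmp19 without any 1 library but ES IP replicate 2 (adjusted p from 0.0564 to 0.155). Adamtsl5, Timp2 and Timp4 did not pass, at 0.14 ± 0.31, -0.11 ± 0.18 and -0.02 ± 0.26. The endothelial markers were all lower in the ES IPs, by log2 values from -3.33 to -2.09.

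Higher in the ES IPs were the 3 neuronal receptors Adam22 (2.41 ± 0.22, adjusted p = 4.67e-06), Adam23 (1.81 ± 0.21, adjusted p = 3.14e-05) and Adam11 (1.57 ± 0.21, adjusted p = 7.96e-05). The membrane proteases Mmp17 (3.21 ± 0.17, adjusted p = 6.98e-07), Mmp24 (3.03 ± 0.28, adjusted p = 6.21e-06) and Mmp16 (0.99 ± 0.23, adjusted p = 0.00327) were higher too, as were Adam19 (2.61 ± 0.46, adjusted p = 0.000524) and Adamts3 (1.46 ± 0.27, adjusted p = 0.000854). The other 4 were Mmp9 (3.51), Adamts13 (3.39), Adamts8 (2.41) and Adamts4 (1.01), with adjusted p from 0.00608 to 0.0244. The values of Mmp9 and Adamts13 rest on 8 counts each in the JL IPs. Adamts4 lost its call without ES IP replicate 3 (adjusted p = 0.0799), and Adamts8 without ES IP replicate 2 or 3 (adjusted p = 0.0686 and 0.112). All 9 neuron markers were higher in the ES IPs as well, by 2.14 to 3.24 on the log2 scale, as were all 7 oligodendrocyte markers, by 1.11 to 2.41, and 6 of 8 astrocyte markers, and their part in these differences was not tested. Among these members, Adam19, Adam22, Adamts8, Mmp17 and Mmp24 lay within the range of the neuron markers. The same genes also lay within the range of the 6 astrocyte markers that were higher (0.97 to 3.25). Adam11, Adam23 and Adamts3 lay within the oligodendrocyte range, and Adam22 and Adamts8 at its upper end. A value inside the neuron range is thus not particular to neurons.

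The third comparison set ES IP against JL input, which differ in both fraction and investigator. Of 53 members tested, 10 were higher in the ES IPs, 17 lower and 26 did not pass, against 26.9% higher and 25.3% lower among all 17477 genes tested. Mmp28 (2.79 ± 0.39, adjusted p = 0.000696), Timp1 (2.14 ± 0.39, adjusted p = 0.00246), Adamts1 (1.70 ± 0.19, adjusted p = 0.000218), Adamtsl5 (1.25 ± 0.18, adjusted p = 0.000743) and Adam15 (1.19 ± 0.12, adjusted p = 0.000145) were higher by more than 1 on the log2 scale. Mmp25 was not tested, at 91 counts against 2, a ratio of 53.9 (95% exact interval 14.5 to 451, counting error only). Timp3 (0.64 ± 0.17), Adamtsl3 (0.88 ± 0.28), Adam19 (0.84 ± 0.30), Mmp17 (0.32 ± 0.11) and Mmp24 (0.42 ± 0.12) were also called higher, with adjusted p from 0.0122 to 0.0414. Each of these last 5 lost its call without at least 1 input library. The count of members called higher fell from 10 to 6 without input replicate 1 and without input replicate 2.

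Among the members lower in the ES IPs than in the inputs, Adamts19 fell furthest, from 306 counts to 1, a ratio of 259 (95% exact interval 46.1 to 10244, counting error only). Adamts6 (-3.03 ± 0.30, adjusted p = 0.00013), Adam32 (-2.97 ± 0.50, adjusted p = 0.0016), Adamts16 (-2.37 ± 0.22, adjusted p = 9.75e-05) and Adamts20 (-1.42 ± 0.19, adjusted p = 0.00057) followed. Lower by less were Adam23 (-1.0 ± 0.15), Timp4 (-0.98 ± 0.16), Adamts4 (-0.97 ± 0.17), Mmp16 (-0.79 ± 0.14), Adam10 (-0.79 ± 0.11), Adamts3 (-0.72 ± 0.13), Adam9 (-0.65 ± 0.12) and Timp2 (-0.53 ± 0.11), with adjusted p from 0.000596 to 0.00524. Adamts2 (-0.52) and Adamts18 (-1.20) were called but lost it without ES IP replicate 3 (adjusted p = 0.0743 and 0.0662) or some of the inputs, and Adam8 and Adam1a, both under 1 CPM, were the other 2. Adam11 (-0.01 ± 0.12) and Adam22 (-0.32 ± 0.17) did not pass, and Adam17 did not either (0.24 ± 0.12).

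Ordering the group means of the 47 members of at least 1 CPM in any group gave 20 with the JL IPs highest, 18 with the inputs highest and 9 with the ES IPs highest. The shares of these orders over all genes were not computed, so the counts cannot be read as a trait of these families. They include Adamts5, Adamts15, Adamts17, Adamtsl1, Adamtsl2, Mmp2 and Mmp11, which passed none of the 3 tests. The JL IPs came first and the ES IPs second for 10, among them Adam15, Adam17, Adamts1, Mmp28, Timp1 and Timp3. For another 10 the JL IPs came first and the ES IPs last, among them Adam10, Adamts9, Mmp14 and Mmp15, and of these 10 only Adam10 and Adamts2 differed between ES IP and input by the test. For 11 the inputs came first and the JL IPs last, among them Adam22, Adam23, Mmp16 and Adamts4. The ES IPs came first and the JL IPs last for 6, of which Adam19, Mmp17 and Mmp24 passed all 3 tests.

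**Figure D4:**
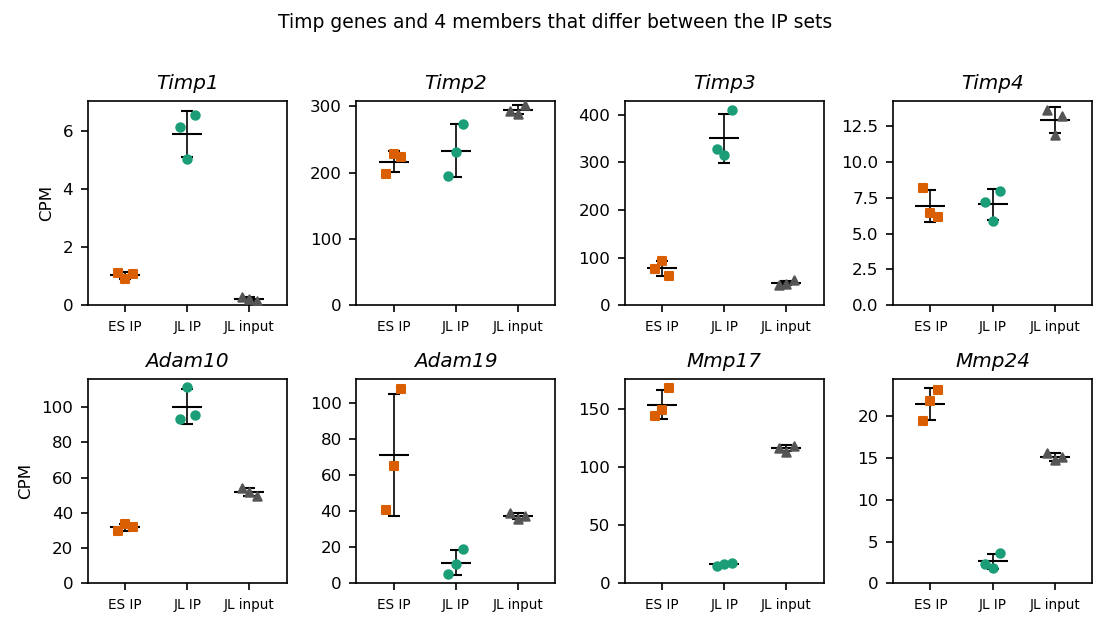
CPM in each library for the 4 Timp genes (upper row) and for Adam10, Adam19, Mmp17 and Mmp24 (lower row), with means and SD bars, each panel on its own linear axis from 0. Timp1 and Timp3 are highest in the JL IPs, Timp2 and Timp4 in the inputs, and in the lower row the ES and JL IPs lie on opposite sides of the inputs.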

How the data were processed

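RNA was measured by sequencing in 9 libraries, grouped by the labels into 3 ES IPs, 3 JL IPs and 3 JL inputs. The authors deposited raw counts of reads for each gene, with 1 file for each library. Per the submitters' processing notes they aligned reads with STAR 2.0.0e to mm10 and counted them with HTSeq. Which annotation, strand setting and filters were used is not given in the sources used here. Rows that name no gene entered neither library sizes nor tests. Of the reads given to a gene, to no feature or to several features, the share with no feature was 17.3 to 24.4% and the ambiguous share 2.04 to 11.3%.

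The test was edgeR 4.0.16 (R 4.3.3) with its default steps (filterByExpr, TMM factors, estimateDisp, glmQLFit, glmQLFTest; Benjamini-Hochberg over all tested genes, threshold 0.05), each fit holding only the libraries compared, and the script was tested on simulated data. SEs of log2 fold changes were taken from the F statistic, as the change over its root. The 3 comparisons share groups and are not independent. Alternatives were DESeq2 1.42.0, limma-voom (limma 3.58.1), other scalings, no filter, 1 fit of all libraries, a replicate block and leaving out each library. Same-numbered JL IPs and inputs were taken as paired by the sequencing lane in their file names (correlation of their deviations from the group means 0.186, 0.0927 and 0.126); other groups share only a number. No 2 libraries of a group agreed within sampling noise (chi-square per degree of freedom from 6.11 to 181). Exon lengths and overlaps come from GENCODE M21 (mm10), which held all 84 genes, and promoters from RefSeq (GRCm38.p6), which matched 53.

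Members of at least 1 CPM in a group are named; those with an adjusted p under 0.05, a log2 change of at least 1 and at least 5 CPM in the higher group, for JL IP against JL input, are given library by library, as are Adam10, Timp2 and Timp4, chosen after their values were seen; of each pathway list the called genes at both ends of the range and of at least 5 CPM get values. Members and lists were chosen with earlier results of these data known. A planned search for the zinc-binding signature in protein sequences was not run. One gene of the list of regulators of these enzymes is counted with its list, and its own result is not reported here.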

Additional observations from a re-analysis of the deposited data

Results flagged for a closer look

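Adam10, Adam19, Mmp17 and Mmp24 were called on opposite sides of the inputs in the 2 IP sets, and each also differed between ES IP and JL IP by edgeR's test of that difference, which flagged them. Adam10 was lower in the ES IPs than in the JL IPs by a log2 difference of -1.65 (adjusted p = 9.00e-06), with values against input of -0.79 for ES IP and 0.95 for JL IP, and these calls held under every alternative run. Adam19 was higher in the ES IPs by 2.61 (adjusted p = 0.000524), with values of 0.84 and -1.69 against input. Mmp17 was higher by 3.21 (adjusted p = 6.98e-07), with 0.32 and -2.81, and Mmp24 by 3.03 (adjusted p = 6.21e-06), with 0.42 and -2.53. For Adam19, Mmp17 and Mmp24 the call of ES IP over input was lost without any 1 of the 3 inputs (adjusted p from 0.0694 to 0.164) and with library size alone as scaling (adjusted p from 0.0632 to 0.156), so the higher side rests on small differences, while the fall in the JL IPs was called under every alternative. The input libraries serve both sides of each contrast, and investigator and lane number cannot be told apart.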

How the results depend on the processing

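Of the members of at least 1 CPM, 36 of 47 tested were called for JL IP against JL input, 28 of 46 for ES IP against JL IP and 25 of 46 for ES IP against JL input, and none of these changed sign under any alternative. Calls were lost under at least 1 alternative for 4, 4 and 7 of them, 2, 1 and 6 of these under an alternative other than leaving out a library. Calls were gained by 6, 4 and 5 members of that level that had not passed, 4, 4 and 2 of these under an alternative other than leaving out a library (Adamts8, Adamts15, Adamts16 and Adamts18 for JL IP against JL input; Adam12, Adam21, Adamts6 and Mmp11 for ES IP against JL IP; Adamts5 and Mmp15 for ES IP against JL input). With library size alone in place of TMM, the median of all genes moved by -0.26 for JL IP against JL input and by -0.11 for ES IP against JL input, and the members called higher for ES IP against JL input went from 10 to 6; leaving out 1 library gave 6 to 11 for the same count. The other counts of members called stayed within 1.5 times their value under every alternative run.

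Same-numbered JL IPs and inputs share a lane, while ES and JL IPs share only a number (correlations of 0.107, -0.0498 and 0.0565). With a replicate block 16 members were higher and 19 lower for JL IP against JL input, 12 and 18 for ES IP against JL IP, and 8 and 16 for ES IP against JL input. For JL IP against JL input the block ended the calls of Adam12, Mmp19, Adam8 and Adam1a and changed no other call of a member.

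Sign changes were seen only in values that did not pass the test, and are given as the lowest and highest log2 fold change with 1 library left out. For JL IP against JL input the ranges were Adamts5 -0.201 to 0.214, Adamtsl1 -0.696 to 0.198 and Adamtsl2 -0.016 to 0.649. For ES IP against JL IP the ranges were Adam32 -0.037 to 0.805, Adam9 -0.167 to 0.025, Adamts16 -1.525 to 0.083, Adamts17 -0.150 to 0.306, Adamts18 -0.141 to 2.795, Adamtsl1 -0.181 to 0.716, Adamtsl2 -0.230 to 0.435, Adamtsl5 -0.092 to 0.395, Timp2 -0.224 to 0.029 and Timp4 -0.159 to 0.089. There, Adamtsl2 also changed sign with 1 fit of all 9 libraries (-0.051) and Timp4 also changed sign with library size alone (0.046). For ES IP against JL input the ranges were Adam11 -0.062 to 0.097, Adamts15 -0.435 to 0.024, Adamtsl1 -0.184 to 0.150, Mmp14 -0.317 to 0.007, Mmp19 -0.665 to 0.167 and Mmp9 -0.287 to 0.091. The cause was not tested.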
